A study of Saccharomyces cerevisiae with 2 samples.

Results

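Yeast gene tables list many open reading frames (ORFs) that have a systematic name only and lie across a named gene on the other strand. Of the 6698 ORFs in the deposited table, 1951 on the nuclear chromosomes had no gene name, and 313 of these had 50% or more of their length on a named ORF of the opposite strand, called the partner here. ORFs that lie wholly within 20 kb of a chromosome end were left out of the 313. They covered 305 partners on all 16 nuclear chromosomes and were short (81 to 1035 bp, median 372 bp) beside the partners (median 1428 bp). By coordinates and strand, 144 reached beyond the start of the partner, 56 lay inside it, 111 reached beyond its end and 2 contained it whole. Among the 313 ORFs, 10 had a locus tag in the RefSeq annotation of the R64 genome.

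Cryptic unstable transcripts (CUTs) are short RNA polymerase II transcripts, many of them from promoters and some antisense to genes. In wild-type nuclei they are tailed by the TRAMP complex, of which Trf4 is a poly(A) polymerase, and removed by the exosome, so that cells without Trf4 keep them. Their caps are bound by the nuclear cap-binding complex, of which Cbc2 is the small subunit. An antisense ORF of this kind is usually classed as dubious, and transcripts across it can come from the partner, from antisense transcription or from a neighbouring promoter.

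RNA bound to TAP-tagged Cbc2 was sequenced from diploid SK1 cells in meiosis after 6 h in sporulation medium. The trf4Δ cells were homozygous for a deletion of TRF4, the others were wild type for TRF4, and both carried CBC2-TAP. There was 1 library per genotype, so no difference given here has a replicate check, and intervals cover counting error only. Each library had its own sequencing lane and the cultures were seeded at different densities before sporulation, so lane, culture and genotype cannot be told apart.

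Reads on ORFs came to 10951658 in trf4Δ and 11628987 in wild type, and wild-type reads were multiplied by 1.345 in the deposited ORF table. These multiplied values are called normalised reads. PAP2, the name under which TRF4 is listed, had 1 trf4Δ read against 465 normalised wild-type reads, at least 155-fold lower in trf4Δ. The 8 prophase genes checked, among them SPO11 and DMC1, had 897 to 16134 reads in trf4Δ and 1455 to 16711 reads before normalisation in wild type. The 5 middle sporulation genes checked had 346 to 8021 reads in trf4Δ and 171 to 1570 before normalisation in wild type. Their log2 differences ran from -1.59 for NDT80 to 2.72 for SPR3. Of the growth genes checked, HXT3 had 20010 trf4Δ reads against 2814 normalised wild-type reads, and HXK2 had 1098 against 1006. Over the 6246 ORFs that passed a minimum of more than 64 trf4Δ or normalised wild-type reads, the median log2 difference, trf4Δ over normalised wild type, was -0.97. This shift of all ORFs stands behind every median below.

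The library preparation as described keeps no record of strand, and reads were divided by position. The ratio of ORF reads to the reads of the segments beneath was 0.78 in trf4Δ and 0.78 in wild type for the antisense ORFs. It was 0.76 in trf4Δ and 0.75 in wild type for named ORFs without any overlap, so the antisense ORFs held as large a share of the reads beneath them. Reads of an antisense ORF and of its partner cannot be told apart, and all values below are of a stretch of genome, not of a strand.

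The stretches around the starts of 5 partners are shown because their antisense ORFs had the highest log2 differences among those that reach beyond a partner start. Each gives 250 bases before and 50 bases from the partner's start codon on the partner's strand, 5′ to 3′, read by locus tag from the R64 sequence of RefSeq, with the bases that the antisense ORF also covers in capitals. R64 is the sequence of the yeast reference strain and not of SK1, so the bases of the cells used may differ. In each of the 5, the partner has the same length in both builds and the antisense ORF at this offset runs from a start codon to a stop codon. The stop codon of each antisense ORF thus lies within 73 bases before the partner's start codon, as the first capitals show on the partner's strand.
APS1: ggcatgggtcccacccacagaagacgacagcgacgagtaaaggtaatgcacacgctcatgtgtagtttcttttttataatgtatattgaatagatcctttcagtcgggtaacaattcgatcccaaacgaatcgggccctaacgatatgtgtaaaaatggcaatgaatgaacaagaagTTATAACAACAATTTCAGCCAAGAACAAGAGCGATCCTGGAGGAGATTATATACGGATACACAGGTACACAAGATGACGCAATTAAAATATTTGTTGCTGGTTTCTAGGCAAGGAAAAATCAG
SFL1: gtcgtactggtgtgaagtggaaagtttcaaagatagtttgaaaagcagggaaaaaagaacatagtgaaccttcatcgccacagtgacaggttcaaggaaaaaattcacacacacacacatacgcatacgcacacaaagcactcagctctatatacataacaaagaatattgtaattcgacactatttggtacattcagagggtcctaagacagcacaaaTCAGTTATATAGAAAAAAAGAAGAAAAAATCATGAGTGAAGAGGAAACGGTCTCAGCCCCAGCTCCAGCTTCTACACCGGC
CDC21: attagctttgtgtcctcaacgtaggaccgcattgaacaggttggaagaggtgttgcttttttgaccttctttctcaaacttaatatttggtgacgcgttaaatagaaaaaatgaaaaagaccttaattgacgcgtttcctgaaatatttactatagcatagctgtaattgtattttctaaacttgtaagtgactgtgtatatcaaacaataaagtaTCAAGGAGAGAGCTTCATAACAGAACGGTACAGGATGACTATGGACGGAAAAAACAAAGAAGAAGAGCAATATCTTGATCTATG
TIM9: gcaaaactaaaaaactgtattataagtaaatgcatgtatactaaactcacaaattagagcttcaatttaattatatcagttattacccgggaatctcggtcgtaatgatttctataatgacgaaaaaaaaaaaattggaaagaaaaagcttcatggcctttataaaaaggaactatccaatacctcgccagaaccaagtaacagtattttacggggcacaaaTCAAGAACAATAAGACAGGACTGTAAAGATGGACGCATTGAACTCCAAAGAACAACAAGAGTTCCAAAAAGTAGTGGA
MTO1: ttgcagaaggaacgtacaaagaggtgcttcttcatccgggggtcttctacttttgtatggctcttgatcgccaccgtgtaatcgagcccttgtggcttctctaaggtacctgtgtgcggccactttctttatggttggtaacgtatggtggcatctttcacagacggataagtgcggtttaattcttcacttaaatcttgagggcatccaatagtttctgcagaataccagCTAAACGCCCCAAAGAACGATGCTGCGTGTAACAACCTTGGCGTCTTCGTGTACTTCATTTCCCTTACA

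Nab3 and Nrd1, proteins that bind the RNA of CUTs and bring in the exosome, recognise TCTT (Nab3) and GTAA or GTAG (Nrd1). Both strands were searched and each motif was counted on its own, so that matches of different motifs may overlap. TCTT occurred 6 times in the APS1 window, 7 in SFL1, 7 in CDC21, 6 in TIM9 and 10 in MTO1, against a median of 5 in 6001 windows of R64 genes. GTAA occurred between 1 and 6 times in the 5 windows, against a median of 3. GTAG occurred 1 time in each, against a median of 1. TCTT was present in 99.4%, GTAA in 94.7% and GTAG in 80.2% of the 6001 windows, so the presence of these letters does not single out any window.

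The antisense ORFs took 281814 reads in trf4Δ, 2.57% of ORF reads (95% Wilson interval 2.56 to 2.58), and 248299 reads in wild type, 2.14% (2.13 to 2.14). A single ORF supplied much of each total. YLR171W held 53582 reads, 19.0% of those in trf4Δ, and YEL034C-A held 40985 reads, 16.5% of those in wild type. The median ORF of the 313 had 230 trf4Δ reads against 370 normalised wild-type reads.

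The read minimum was passed by 284 of the 313, and 29 did not pass it, of which 10 lay inside a partner and 16 beyond a partner end. Those 29 had at most 56 reads in trf4Δ and at most 47 in wild type. The 2 that lie across the copper-binding metallothionein genes CUP1-1 and CUP1-2 had 0 reads in both libraries. These genes are copies of each other, and reads that map to more than 1 place are lost where only unique reads are kept.

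More than 4-fold higher in trf4Δ were 30 of the 284 (10.6%), against 8.09% of all ORFs, and more than 4-fold lower were 42 (14.8%), against 10.6% of all ORFs. Their median log2 difference was -1.20, with a 95% interval over the ORFs of -1.32 to -0.96. The median was -1.05 for 4126 named ORFs without overlap, -0.65 for 1007 unnamed ORFs without overlap and -0.90 for 302 partners. Most antisense ORFs were thus lower in trf4Δ, as were most ORFs, and 74 (26.1%) had a positive value, against 28.0% of all ORFs. When all ORFs were centred at a median of 0, 44 antisense ORFs were more than 4-fold higher (15.5%, against 15.1% of all ORFs) and 2 lower (0.704%, against 0.192%), so the balance of higher and lower calls depends on the scaling.

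**Figure D1:**
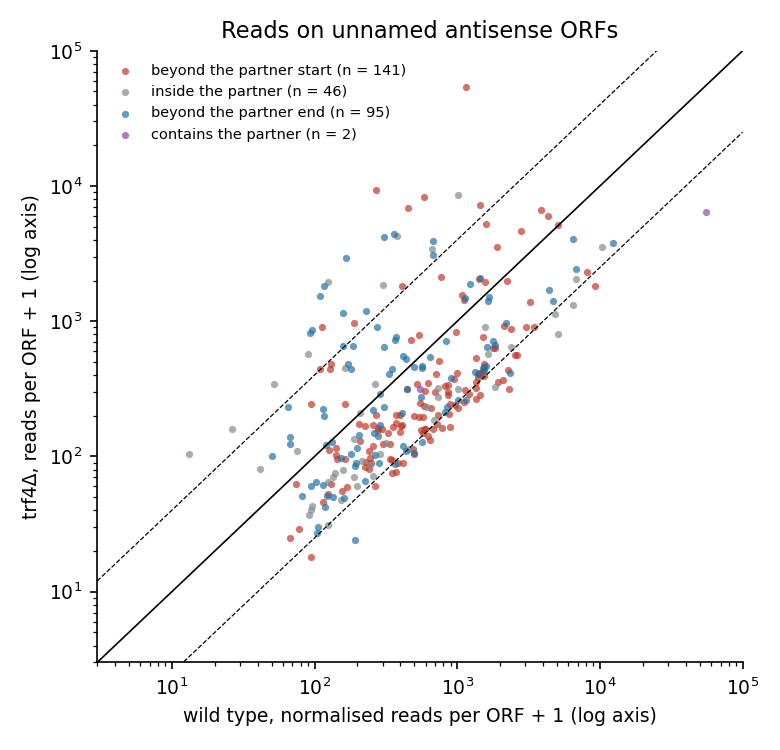
Reads per ORF plus 1 for the 284 antisense ORFs that passed the read minimum, trf4Δ on the vertical and normalised wild type on the horizontal log axis, coloured by position on the partner. The solid line marks equal values and the dashed lines 4-fold differences; 30 ORFs lie above the upper dashed line and 42 below the lower.

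The antisense ORF and its whole partner had similar log2 differences, with a Pearson r of 0.77 and a Spearman rho of 0.77 over 284 pairs. The pairs share reads, since most of each antisense ORF lies on its partner, so the correlation is a description only. Of the 30 that were more than 4-fold higher, 16 had a partner that was itself more than 4-fold higher and 14 did not. Of the 42 that were more than 4-fold lower, 21 had a partner past the same fold. These counts rest on shared reads as well.

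The medians differed with position on the partner, while the values of the positions overlapped broadly. Antisense ORFs beyond a partner start had a median log2 difference of -1.35 over 141, those inside a partner -1.26 over 46, and those beyond a partner end -0.66 over 95. More than 4-fold higher were 9 beyond a start (6.38%), 9 inside (19.6%) and 12 beyond an end (12.6%), against the 8.09% of all ORFs. More than 4-fold lower were 29 beyond a start (20.6%), 6 of 46 inside and 6 beyond an end (6.32%), against the 10.6% of all ORFs. With all ORFs centred at 0 the medians were -0.37, -0.28 and 0.32 for start, inside and end, a shift of every value by the same amount that turns the sign of the end group.

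**Figure D2:**
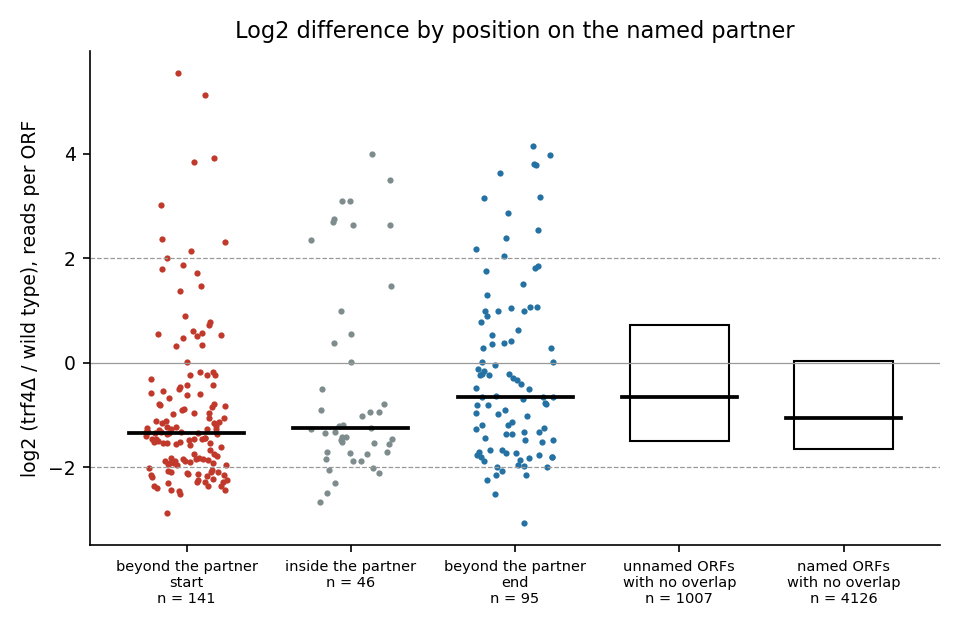
Log2 difference, trf4Δ over normalised wild type, of each antisense ORF past the read minimum, by position on the named partner, with thick lines at the medians of -1.35, -1.26 and -0.66. Boxes give the quartiles and medians of unnamed ORFs (-0.65) and named ORFs (-1.05) that overlap no other ORF, and dashed lines mark 4-fold differences.

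Beyond partner starts, the highest value of all was that of YLR171W (SGD1.01, chromosome XII, 500735 to 501124, plus strand), over the start of APS1, the small subunit of a clathrin adaptor complex. It had 53582 trf4Δ reads against 1151 normalised wild-type reads, a log2 difference of 5.54 (95% counting interval 5.44 to 5.64) or 46.5-fold. The capitals of the APS1 window above are its last 123 bases. Reads were not confined to the overlap. The remainder of APS1, here a single 100 bp segment, had 7446 trf4Δ reads against 328 normalised wild-type reads, a log2 difference of 4.51.

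YOR139C (chromosome XV, 586951 to 587343, minus strand) lies over the start of SFL1, a repressor of flocculation genes. It had 9324 trf4Δ reads against 269 normalised wild-type reads, a log2 difference of 5.12 (4.91 to 5.32). The remainder of SFL1 was also higher, by 3.78 on the log2 scale. Both the ORF and the gene it crosses were thus far above wild type.

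YOR073W-A (chromosome XV, 467392 to 467625, plus strand) crosses the start of CDC21, thymidylate synthase. It had 6820 trf4Δ reads against 453 normalised wild-type reads, a log2 difference of 3.91, and the remainder of CDC21 gave 3.49. YEL020C-B (chromosome V, 117183 to 117380, minus strand) crosses the start of TIM9, a chaperone of the mitochondrial intermembrane space. It had 8352 trf4Δ reads against 580 normalised wild-type reads, a log2 difference of 3.85, beside 3.82 for TIM9 as a whole. Since most of YEL020C-B lies on TIM9, those 2 values share most of their reads.

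YGL235W, over the start of MTO1, a gene of mitochondrial tRNA modification, had 901 trf4Δ reads against 112 normalised wild-type reads, a log2 difference of 3.01. CUTs covered 21.4% of it. YHL030W-A, over the start of the Golgi SNARE gene GOS1, had 7179 trf4Δ reads against 1455 normalised wild-type reads, a log2 difference of 2.30. It was among the 5 antisense ORFs with most reads in trf4Δ, together with YLR171W, YOR139C, YEL020C-B and YNL097W-A.

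Other antisense ORFs beyond a start lay at the low end of the range. YEL018C-A, over the start of EAF5 of the NuA4 acetyltransferase, had 316 trf4Δ reads against 2304 normalised wild-type reads, a log2 difference of -2.87 (-3.04 to -2.69). YBL100C, over the start of ATP1, the alpha subunit of ATP synthase, had 368 trf4Δ reads against 2092 normalised wild-type reads, a log2 difference of -2.51. The remainder of ATP1 gave -2.44, so this antisense ORF and its partner were lower by nearly the same amount.

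YOR331C, over the start of the vacuolar ATPase subunit gene VMA4, had 1806 trf4Δ reads against 9276 normalised wild-type reads, a log2 difference of -2.36. YLR437C-A, over the start of CAR2, ornithine aminotransferase, had 2320 trf4Δ reads against 8153 normalised wild-type reads, a log2 difference of -1.81. Both were among the 5 with most reads in wild type. CUTs covered neither of them.

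Inside partners, the highest value was that of YLR299C-A (chromosome XII, 727913 to 728005, minus strand), on ECM38, gamma-glutamyltranspeptidase. It had 1963 trf4Δ reads against 124 normalised wild-type reads, a log2 difference of 3.99 (3.69 to 4.31), while ECM38 as a whole gave 2.03. YNL097W-A, on PHO23, a subunit of a histone deacetylase complex, had 8595 trf4Δ reads against 1006 normalised wild-type reads, a log2 difference of 3.10, beside 2.77 for PHO23. Both ORFs held no whole 100 bp segment and could not be set against the remainder of the partner.

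YPL222C-A (chromosome XVI, 131869 to 132114, minus strand), on FMP40, was the ORF more than 4-fold higher that touched no CUT. It had 3395 trf4Δ reads against 667 normalised wild-type reads, a log2 difference of 2.35 (2.21 to 2.49). The remainder of FMP40 had 1039 trf4Δ reads against 2675 normalised wild-type reads, a log2 difference of -1.36. The stretch beneath YPL222C-A and the remainder of the gene thus lay on opposite sides of 0.

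Lower values inside a partner included YER023C-A, on PRO3 of proline synthesis, with 806 trf4Δ reads against 5098 normalised wild-type reads, a log2 difference of -2.66 beside -2.54 for the remainder of PRO3. This ORF followed the gene it lies on.

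Beyond partner ends, YHR063W-A (chromosome VIII, 225444 to 225779, plus strand) was highest, over the end of SSZ1, an Hsp70-like protein of the ribosome-associated complex. It had 2922 trf4Δ reads against 164 normalised wild-type reads, a log2 difference of 4.15 (3.89 to 4.43). The remainder of SSZ1 had 847 trf4Δ reads against 1360 normalised wild-type reads, a log2 difference of -0.68. The higher level was therefore over the end of the gene and not over most of it.

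YPL197C, over the end of the ribosomal protein gene RPL7B, had 1812 trf4Δ reads against 116 normalised wild-type reads, a log2 difference of 3.97, and here the remainder of RPL7B was higher too, by 3.23. RPL7B has a near-identical copy, so unique mapping may leave out part of its reads. YDR426C, over the end of the sorting nexin gene SNX41, had 1531 trf4Δ reads against 109 normalised wild-type reads, a log2 difference of 3.81, against 0.06 for the remainder of SNX41.

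YNL013C (chromosome XIV, 609134 to 609511, minus strand) lies over the end of HEF3, a paralogue of translation elongation factor 3. It had 4187 trf4Δ reads against 305 normalised wild-type reads, a log2 difference of 3.78 (3.58 to 3.98). The remainder of HEF3 had 2700 trf4Δ reads against 6923 normalised wild-type reads, a log2 difference of -1.36. HEF3 as a whole, at 0.18, gave no sign of either value.

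The lowest values beyond an end were those of YDR401W, over the end of DIT2, a cytochrome P450 of the dityrosine spore wall, and of YLR076C, over the end of the ribosomal protein gene RPL10. YDR401W had 23 trf4Δ reads against 192 normalised wild-type reads, a log2 difference of -3.06 with a wide counting interval of -3.77 to -2.42. YLR076C had 411 trf4Δ reads against 2355 normalised wild-type reads, a log2 difference of -2.52. The remainders gave -2.99 for DIT2 and -2.49 for RPL10, the latter from a single segment, close to their antisense ORFs. YNL150W, over the end of PGA2, was among the 5 with most reads in wild type, with 3788 trf4Δ reads against 12358 normalised wild-type reads, a log2 difference of -1.71.

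The 2 antisense ORFs that contain their partner whole were YEL034C-A (chromosome V, 85613 to 86215, minus strand), across HYP2, the translation factor eIF5A, and YCR087W, across LUG1. YEL034C-A had 6470 trf4Δ reads against 55113 normalised wild-type reads, 8.52-fold lower in trf4Δ and, at -3.09, the lowest log2 difference of the 284. HYP2 itself gave -3.13. YCR087W had 317 trf4Δ reads against 547 normalised wild-type reads, a log2 difference of -0.79.

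To separate the overlap from the rest of the gene, the summed reads of segments wholly inside the overlap were set against those of the partner wholly outside the antisense ORF. Both sides had more than 64 trf4Δ or normalised wild-type reads for 231 of the 284, and 53 had too few reads or segments. The 2 sides were less alike than the whole ORFs, with a Pearson r of 0.54 and a Spearman rho of 0.54 over 231 pairs, as neighbouring stretches that share no segment. The median difference between the sides, overlap minus remainder on the log2 scale, was -0.09 (-0.23 to 0.05 over the pairs).

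This median hid opposite values at the 2 ends of partners. Beyond a start the median was -0.43 over 124 (-0.65 to -0.22), with 35 (28.2%) above 0, against 36.0% for the start stretches of named ORFs described next. Inside a partner it was -0.11 over 26 (-0.55 to 0.16). Beyond an end it was 0.53 over 81 (0.31 to 0.81), with 61 (75.3%) above 0, against 66.1% for their end stretches.

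The same measure was then taken on named ORFs without any overlap, whose first 315 bp or last 313 bp stood in for the antisense ORF. The start stretch gave a median of -0.26 over 3560 and the end stretch 0.35 over 3323, in the same directions. The overlap was more than 4-fold above the remainder for 2 of 124 antisense ORFs beyond a start (1.61%), against 2.67% of start stretches, and more than 4-fold below it for 14 (11.3%), against 13.5%. Beyond an end, 14 of 81 (17.3%) were more than 4-fold above, against 18.9% of end stretches, and 1 (1.23%) was more than 4-fold below, against 2.35%. The shares for the antisense ORFs were thus close to those for ends of genes with no antisense ORF at all.

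**Figure D3:**
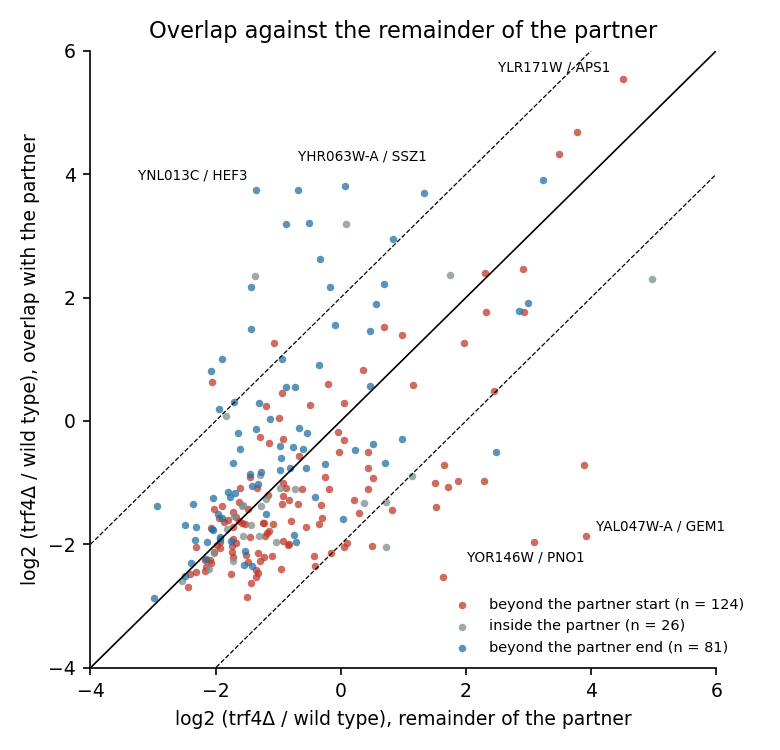
Log2 difference, trf4Δ over normalised wild type, in the overlap (vertical) and in the remainder of the partner (horizontal) for 231 antisense ORFs, with equal values on the solid line and a 4-fold disparity on each dashed line. Most blue points (beyond an end, 61 of 81) lie above the solid line and most red points (beyond a start, 89 of 124) below it.

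The largest disparities toward the overlap were 5.10 for YNL013C on HEF3, 4.43 for YHR063W-A on SSZ1, 4.07 for YDR199W on VPS64, 3.74 for YDR426C on SNX41 and 3.72 for YPL222C-A on FMP40. Apart from YPL222C-A, these reach beyond a partner end. For YHR063W-A on SSZ1 the overlap side was a single segment, with 1027 trf4Δ reads against 76.6 normalised wild-type reads. YDR199W had 814 trf4Δ reads against 91.4 normalised wild-type reads, while the remainder of VPS64 had 352 trf4Δ reads against 648 normalised wild-type reads. In all 5 the remainder was at or below 0.06 on the log2 scale.

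At HEF3 the 100 bp segment centred 2930 bp from the gene's start held 2010 trf4Δ reads against 180 normalised wild-type reads. The segment centred at 330 bp held 166 trf4Δ reads against 598 normalised wild-type reads. At SSZ1 the segment centred at 1592 bp held 1608 trf4Δ reads against 56.4 normalised wild-type reads, and that at 492 bp held 15 trf4Δ reads against 64.5 normalised wild-type reads. In both genes the trf4Δ reads climbed toward the gene's end in several steps of a segment, and the climb began before the antisense ORF was reached.

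The largest disparities toward the remainder were -5.79 for YAL047W-A on GEM1, -5.06 for YOR146W on PNO1 and -4.59 for YIR020C-B on MRS1, all beyond a partner start. YAL047W-A had 62 trf4Δ reads against 129 normalised wild-type reads. Its overlap side was a single segment, with 25 trf4Δ reads against 91.4 normalised wild-type reads. The remainder of GEM1, a GTPase of the mitochondrial outer membrane, had 6619 trf4Δ reads against 438 normalised wild-type reads. YOR146W had 242 trf4Δ reads against 892 normalised wild-type reads, and the remainder of PNO1, a factor of small ribosomal subunit assembly, had 13572 trf4Δ reads against 1595 normalised wild-type reads. YIR020C-B had 95 trf4Δ reads against 143 normalised wild-type reads, and the remainder of MRS1, a splicing factor of mitochondrial introns, had 1292 trf4Δ reads against 87.3 normalised wild-type reads. Within these genes the higher level lay toward the end of the gene, away from the antisense ORF. At GEM1, trf4Δ was also higher on the other side of the antisense ORF. The segment centred 260 bp before the gene's start held 415 trf4Δ reads against 29.6 normalised wild-type reads.

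**Figure D4:**
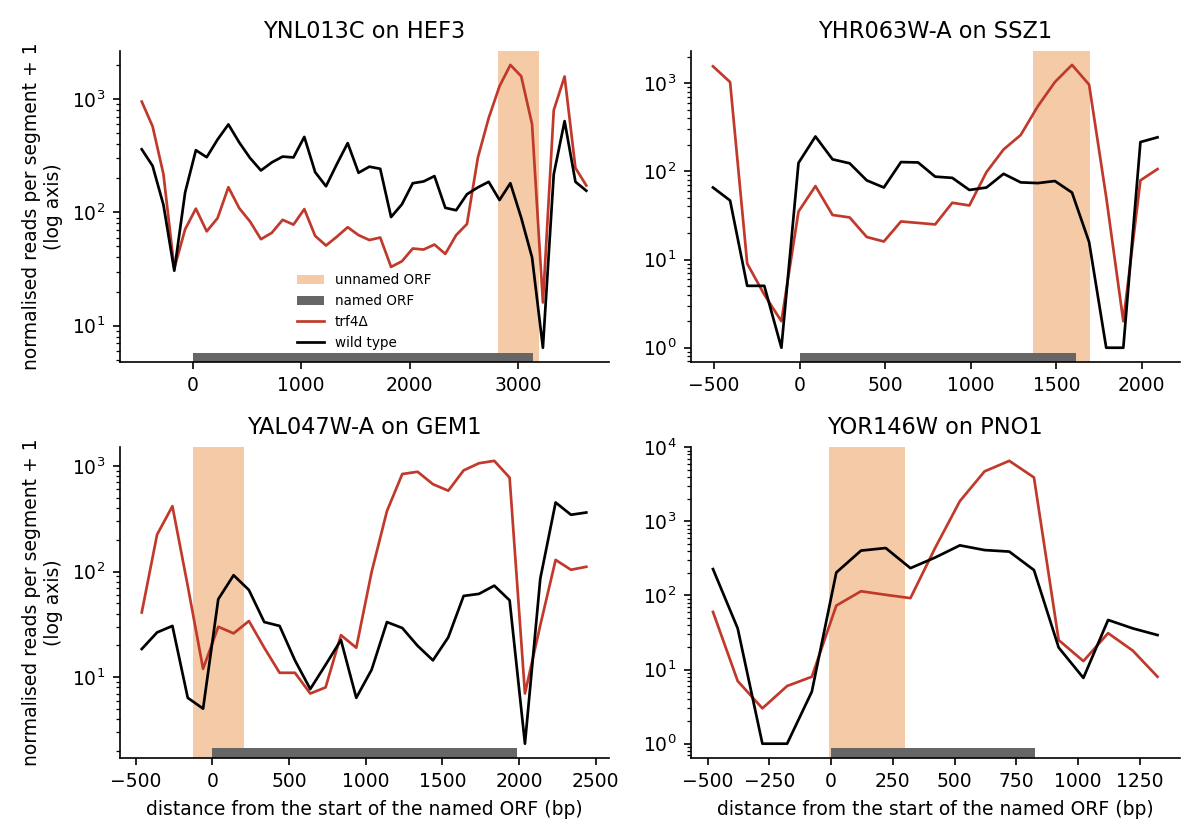
Normalised reads per 100 bp segment plus 1 (log axis) in trf4Δ (red) and wild type (black) by distance from the start of the named ORF, for HEF3, SSZ1, GEM1 and PNO1, with the antisense ORF shaded and the named ORF as a grey bar. In HEF3 and SSZ1 the red line is above the black line over the shaded end, with up to 2010 and 1608 reads in trf4Δ, and in GEM1 and PNO1 it is above it toward the end of the gene that the antisense ORF does not cover.

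Along partners as a whole, segments with at least 20 trf4Δ or normalised wild-type reads were taken by distance from the gene's ends. From 200 to 100 bp before the start the median log2 difference was 0.71 over 89 segments of partners with an antisense ORF beyond the start and 0.01 over 62 of partners with one beyond the end, against 0.75 over 2340 of named ORFs without overlap. The minimum removes many segments before starts, and with every segment that had a read, tried after seeing the data, these medians were 0.55 over 140, 0.47 over 105 and 0.57 over 4033. From 500 to 400 bp before the start the medians with the minimum were -0.65 for start partners and -0.35 for end partners, against 0.05 for named ORFs without overlap. With every segment that had a read they were -0.28, -0.27 and 0.13.

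From 100 to 200 bp after the start the medians were -1.65 over 139 for start partners and -1.55 over 104 for end partners, against -1.43 over 3979. In the 100 bp after the end they were -0.09 over 105 for start partners and -0.60 over 75 for end partners, against -0.34 over 3015. All 3 groups were thus low within the gene and less low around the end. With every segment that had a read, the medians in the 100 bp after the end were -0.18, -0.39 and -0.27, closer together than with the minimum. How far the groups differed outside the gene thus depended on the minimum.

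**Figure D5:**
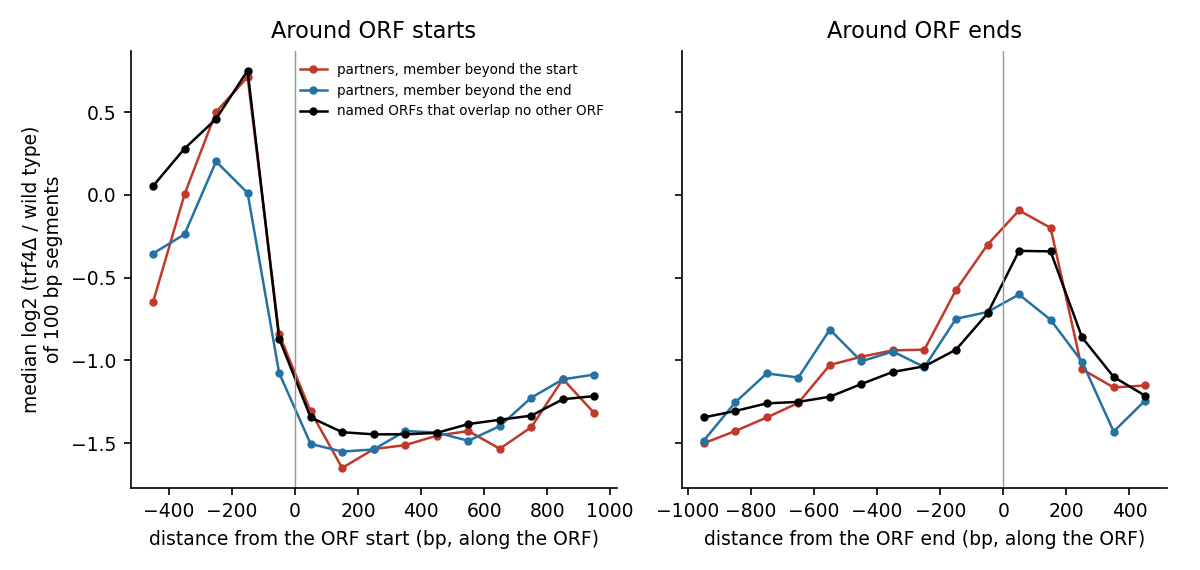
Median log2 difference of 100 bp segments with at least 20 trf4Δ or normalised wild-type reads by distance from ORF starts (left) and ORF ends (right), for partners with an antisense ORF beyond the start (red), partners with one beyond the end (blue) and named ORFs that overlap no other ORF (black). From 200 to 100 bp before starts the red median is 0.71, the blue 0.01 and the black 0.75, and within genes all lines lie at or below -0.81 until the last 300 bp.

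CUTs were called on the deposited segments of the nuclear chromosomes, which gave 1573 here. The steps were those of the analysis script published with the study, with segments joined only within a chromosome. CUTs covered 50% or more of 27 of the 313 (8.63%), against 4.3% of all ORFs and 7.22% of unnamed ORFs that overlap no other ORF, and touched 41 (13.1%), against 18.4% of all ORFs. The antisense ORFs are shorter than most ORFs, at a median of 372 bp against 1086 bp, and the part of length in these shares was not tested. Coverage of 50% or more was reached by 8 of 144 beyond a start, 8 of 56 inside and 11 of 111 beyond an end. Of the 30 that were more than 4-fold higher, 26 were covered by 50% or more and 29 were touched, but both calls rest on the same reads.

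Among the 30, the RNA polymerase III subunit gene RPC34 had an antisense ORF inside it, YNR003W-A, with 4259 trf4Δ reads against 375 normalised wild-type reads, a log2 difference of 3.50. YBL077W, over the end of ILS1, isoleucyl-tRNA synthetase, had 862 trf4Δ reads against 95.5 normalised wild-type reads, a log2 difference of 3.17, against -0.50 for the remainder of ILS1. YFL013W-A, over the end of IES1 of the INO80 chromatin remodelling complex, had 3921 trf4Δ reads against 676 normalised wild-type reads, a log2 difference of 2.54, against -0.33 for the remainder. These 3 were chosen after their values were seen.

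No antisense ORF of this kind lay across the 22 listed genes of the exosome, TRAMP and Nrd1-Nab3 termination that are in the table, nor across 29 listed meiotic genes, among them SPO11, DMC1 and NDT80. The list does not hold all genes of meiosis. YGR226C, for example, chosen after its values were seen, lay inside AMA1, a meiosis-specific activator of the anaphase-promoting complex, with 1131 trf4Δ reads against 4849 normalised wild-type reads and a log2 difference of -2.10, beside -2.03 for the remainder of AMA1. The nearest ORFs on either side of the 50% limit were mixed. Just inside it, YGR265W on MES1 (50.1%) had a log2 difference of -2.06, YGL024W on PGD1 (50.6%) of -1.79, and YOR170W on LCB4 (50.3%) only 8 trf4Δ reads against 41.7 normalised wild-type reads. Just outside, YMR290W-A on HAS1 (48.9%) gave 0.62, YML099W-A on ARG81 (48.8%) gave 3.46 and YER107W-A on GLE2 (47.4%) gave -0.87.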

How the data were processed

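Cbc2-associated RNA from trf4Δ and wild-type cells was sequenced, 1 library each. Per the labels and the methods, reads were trimmed with Trim Galore 0.3.5 and mapped with Bowtie 0.12.7 to SGD1.01, and SeqMonk was used to sum them. The authors deposited log2 reads per ORF and per 100 bp segment, with 0.9 in place of 0, and had multiplied wild-type reads in the ORF table by 1.345. Here the log2 values were turned back into reads: 99.4% of trf4Δ and 99.5% of wild-type ORF values were whole within 0.01, or 0.9. Wild-type segments were multiplied by 1.344 for equal totals without 37S pre-rRNA.

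The segments held 29687088 reads in trf4Δ and 22092372 in wild type. Reads counted near a segment border and PCR copies are not independent. No p-value was computed. Counting intervals are exact 95% intervals, and intervals of medians are 95% order-statistic intervals over ORFs, which are not replicates. CUTs were segments more than 4-fold higher in trf4Δ, joined where starts lay up to 300 bp apart, at least 300 bp long and with a mean log2 read count above 6. The antisense ORFs and the gene lists were chosen with earlier results of these data known. Named were the 8 highest and 6 lowest log2 differences, the 5 with most reads in each library, the 5 highest and 3 lowest overlap minus remainder, the highest per position, and the 3 ORFs on each side of the overlap limit. 1 antisense ORF that this rule names is not reported here. Alternatives changed the scaling, read minimum, overlap, chromosome ends, fold, source of reads, CUT calls and segment choice. The stretches of named ORFs without overlap, the partners without a CUT, overlap minus remainder by position under each alternative, and segments without a minimum were added after seeing the data. The steps were tested on simulated data. The R64 sequence was read by locus tag only, and none of its coordinates are given. Figures were drawn with matplotlib 3.10.9, and values were computed in Python 3.11.15 with scipy 1.17.1, pandas 2.3.3 and numpy 2.4.6.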

Additional observations from a re-analysis of the deposited data

How the results depend on the processing

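No paired analysis was possible because each genotype had 1 library. With the median of all ORFs at 0, 2 antisense ORFs were more than 4-fold lower and the median log2 difference was -0.23, a shift of 0.97 for every ORF, and the median beyond partner ends became 0.32. The limit to ORFs wholly on the partner kept the 56 inside it and left the other positions without a value. Of the 46 of these past the read minimum, 9 were higher and 6 lower, against 8.09% and 10.6% of all ORFs. CUTs covered 50% or more of 8 of the 56 (14.3%), against 4.3% of all ORFs. Of the 284, a 2-fold limit gave 44 higher and 155 lower, and an 8-fold limit 16 higher and 2 lower. The shares of all ORFs at these limits were not computed. The median of all ORFs, at -0.97, was itself close to 2-fold lower, so the 155 do not set the antisense ORFs apart from other ORFs. Any touch of a CUT gave 41 (13.1%), against 18.4% of all ORFs. CUTs at more than 8-fold gave 16, and the share of all ORFs covered by such CUTs was not computed. The counts of higher ORFs ran from 9 to 44 and of lower ORFs from 2 to 155 over 10 alternatives each. The alternatives differ in the fold and in the ORFs counted, so these ranges are not an error of the 4-fold counts. The median overlap minus remainder, which scaling hardly touches, lay between -0.43 and -0.28 beyond a start and between 0.38 and 0.63 beyond an end over 9 alternatives each. Where the partner held no CUT segment, an alternative chosen after seeing the data, it was -0.28 over 97 beyond a start and 0.38 over 64 beyond an end. YLR171W carries 19.0% of the trf4Δ reads on antisense ORFs and YEL034C-A 16.5% of those of wild type, so sums over the antisense ORFs rest on them more than medians do. Low reads limit single ORFs, as the interval of YDR401W shows.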

Other observations

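Of the partners, 8 carried 2 antisense ORFs each. On SPT6 the 2 overlap each other and share reads, and on the other partners they give values at 2 separate places of 1 gene. ARE1, an acyl-CoA:sterol acyltransferase, was higher at both, with a log2 difference of 1.88 for YCR049C beyond the start and 2.05 for YCR050C beyond the end. YCR050C had 651 trf4Δ reads against 157 normalised wild-type reads. The places differed on VHS3, where YOR053W beyond the end had 1184 trf4Δ reads against 227 normalised wild-type reads, a log2 difference of 2.38, and YOR055W beyond the start had 303 trf4Δ reads against 590 normalised wild-type reads, a log2 difference of -0.96. On TRM5, a tRNA methyltransferase, the order was the other way, with 1.38 for YHR069C-A beyond the start and -1.99 for YHR070C-A beyond the end, the second with only 26 trf4Δ reads against 104 normalised wild-type reads. Both were negative on CCC2, a copper transporter (-1.29 beyond the start and -1.86 beyond the end), on the heat shock factor gene HSF1 (-1.21 beyond the start and -0.41 beyond the end), on PNS1 (-1.24 and -1.42) and on SPT6, a transcription elongation factor (-1.35 and -1.45). On STE7, a kinase of the mating pathway, neither passed the read minimum.

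Of the 10 antisense ORFs that keep a locus tag in R64, YGL235W on MTO1 was highest at 3.01 and YCR050C on ARE1 next at 2.05. YER145C-A, over the start of LSM5, had 5139 trf4Δ reads against 5114 normalised wild-type reads, a log2 difference of 0.01, and YPR099C, over the start of MRPL51, had 458 trf4Δ reads against 1532 normalised wild-type reads, a log2 difference of -1.74. YCL022C, which is not among these 10, lies inside the kinase gene KCC4 and was higher by 2.74 on the log2 scale. KCC4 as a whole was higher by 5.77, the largest value of any partner. These ORFs were picked after their values were seen.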
